A study of Mus musculus and Rattus norvegicus with 12 samples.

Results

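The 2-oxoglutarate oxygenases are enzymes that use iron, molecular oxygen and 2-oxoglutarate, an intermediate of the citric acid cycle, to hydroxylate or demethylate proteins, nucleic acids and small molecules. Their members were taken by gene symbol, ignoring case, from a list of 51 enzymes covering the HIF prolyl and asparaginyl hydroxylases, the collagen prolyl and lysyl hydroxylases, the JmjC protein and RNA hydroxylases, the JmjC histone demethylases, the Tet, AlkB and Ogfod families and the small-molecule hydroxylases. Of the 51 symbols, 50 had a row among the 54087 of the mouse heart counts, and 48 of these 50 passed the filter on low counts, among 18094 genes tested. All 51 symbols had a row among the 28909 of the rat counts, and 49 passed, among 15497 genes tested. Kdm4d, a histone H3 lysine demethylase, and Bbox1, the last enzyme of carnitine synthesis, failed the filter in both species with at most 16 counts in any library, and Tmlhe, the first enzyme of carnitine synthesis, had a row in the rat counts only.

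RNA sequencing covered 12 libraries in 4 groups of 3. The cKO hearts came from tamoxifen-treated mice labelled MCM+ Jmjd4f/f with a myh6 cre, whose promoter is active in cardiomyocytes, and the flox hearts from tamoxifen-treated Jmjd4f/f mice. Apex tissue of both was taken 14 days after tamoxifen. The other 6 libraries were neonatal rat ventricular cardiomyocytes (NRVCs) prepared from newborn Sprague-Dawley (SD) rats and given an siRNA against Jmjd4 (siJmjd4) or a control siRNA (siNC) for 48 h. Jmjd4, itself a JmjC oxygenase, hydroxylates a translation termination factor in human cells and is the gene targeted in both systems. The flox mice are not labelled as carrying the Cre, so the loss of Jmjd4 and the presence of the activated Cre cannot be told apart. Nothing in the labels says that the 3 replicates of a group came from separate animals or cultures, so the p-values measure the spread between these libraries.

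As background, the oxygenases couple cell state to oxygen and to the citric acid cycle, because both supply their substrates. Their product succinate and the cycle intermediate fumarate inhibit them. The Egln enzymes hydroxylate the alpha subunits of the hypoxia-inducible factor (HIF) and mark them for destruction, whereas Hif1an blocks their binding to coactivators. In the heart the collagen hydroxylases act mainly in matrix-forming fibroblasts, where hydroxyproline stabilises the triple helix and hydroxylysine permits cross-links, and the JmjC demethylases and Tet enzymes remove methyl marks from histones and DNA.

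Jmjd4 was examined first. It had 8.95, 4.92 and 9.63 CPM (counts scaled to library size with the trimmed mean of M-values) in the cKO hearts, against 19.0, 8.04 and 16.9 CPM in the flox hearts. The groups overlapped at flox 2, with a log2 fold change of -0.90 (SE 0.44, n = 3 each; edgeR's quasi-likelihood test, adjusted p = 0.397). The libraries labelled siJmjd4 held 3.58, 3.43 and 3.52 CPM, against 3.46, 4.40 and 0.982 CPM in siNC libraries. The labelled knockdown was therefore not visible in these counts, with a log2 fold change of 0.25 (SE 0.52) and, without siNC 3, of -0.16. Every direction given below for the NRVCs is that of libraries labelled siJmjd4. The labels do not name the floxed exons, so reads from the remaining exons and from cells without Cre activity may be part of the heart counts.

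Library totals were 66364405 to 80297797 counts in hearts and 57174654 to 82187009 in NRVCs. One control library stood apart in each system. Mitochondrial genes took 41.7% of the counts in flox 3 and 14.2% to 24.1% in the other heart libraries, and 1485 tested genes had no count in flox 3, against 125 to 503 in the others. In siNC 3, 461 tested genes had no count, against 78 to 137 in the other NRVC libraries. Counts of called members are therefore given with and without flox 3 or siNC 3, and fold changes without them where these differed most. The tissue carried its markers: no marker of cardiomyocytes, fibroblasts, endothelial cells, smooth muscle or macrophages was at 0 across the heart libraries. The hearts are labelled as cardiomyocytes but were apex tissue, and the NRVC libraries also held fibroblast markers at a summed 42940 to 49580 CPM (labelled siJmjd4) and 36350 to 44230 CPM (siNC), above their cardiomyocyte markers at 9636 to 12090 CPM (labelled siJmjd4) and 12740 to 18960 CPM (siNC). In bulk RNA, fewer cells of a type and less RNA per cell cannot be told apart.

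In the hearts, the collagen prolyl 4-hydroxylase subunit P4ha3 was nearly undetected in flox and present in all 3 cKO hearts. At an unadjusted p under 0.05, Plod2, P4htm and Hspbap1 also had higher cKO levels, and Phyh, Egln1, Alkbh7 and Jmjd7 lower ones. None of the 48 tested members passed the threshold of 0.05 for the Benjamini-Hochberg adjusted p of edgeR's quasi-likelihood test with all 6 libraries, against 0.508% of all genes tested. At an unadjusted p under 0.05 there were 8 members (16.7%), against 15% of all genes. Of these, 4 had higher cKO levels, against 8.22% of all genes, and 4 lower ones, against 6.79%. Without flox 3 the test called P4ha3 alone among the members, against 7.19% of all genes tested. On all libraries, DESeq2's Wald test called 4 members (9.69% of all genes), limma voom with sample quality weights 10 (21.3% of all genes) and edgeR with each library's trend with exon length taken out 3 (6% of all genes). The cKO and flox groups did not overlap for 11 members (22.9%), 6 higher and 5 lower in cKO, against 26.1% of all genes in either direction. The median log2 fold change of the members was -0.07, beside 0.00 for all genes tested. These shares lie near or below those of all genes. Summed over the members, cKO hearts held 1912 to 1996 CPM and flox hearts 2518 to 2694 CPM, a sum in which Phyh and Egln1 weigh most.

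**Figure D1:**
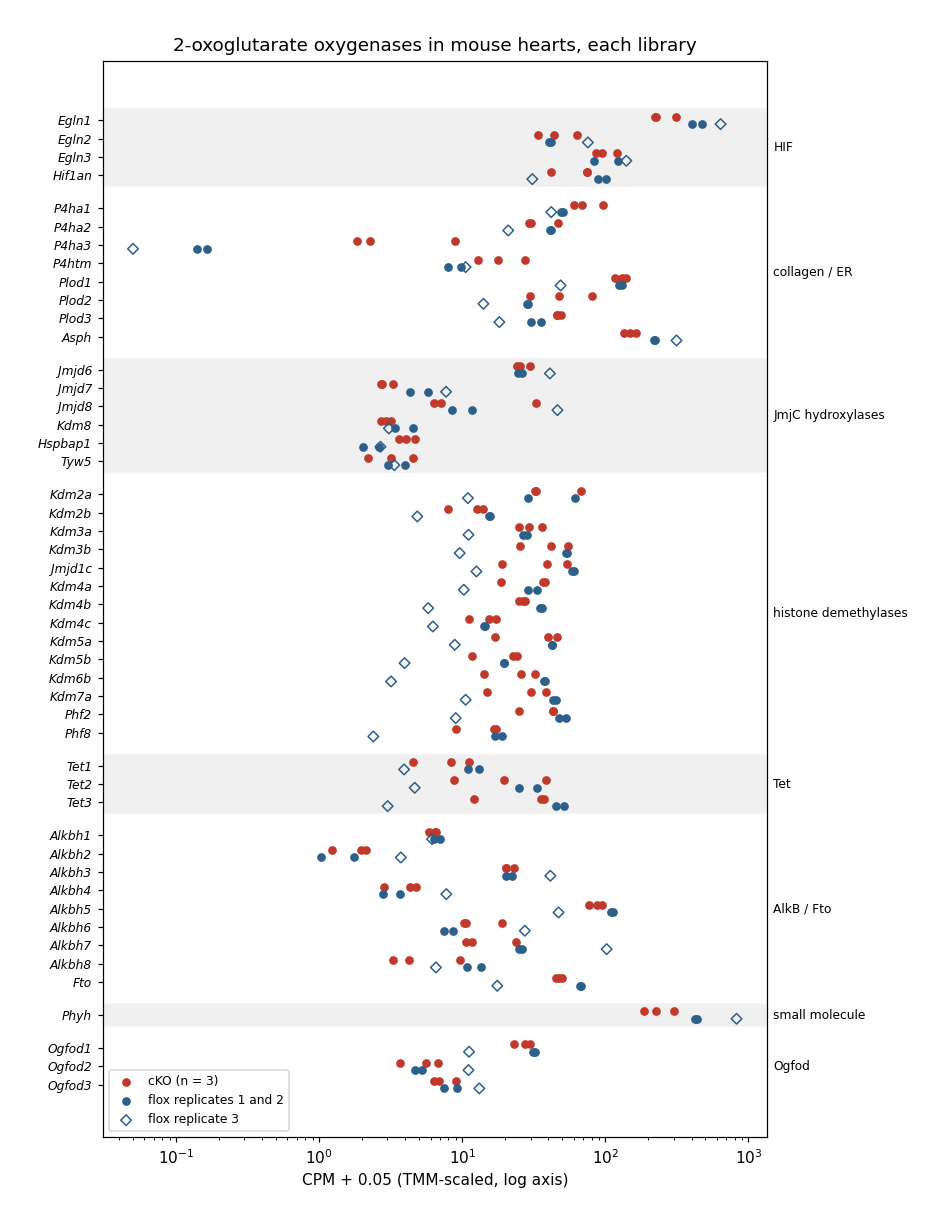
Level of each tested 2-oxoglutarate oxygenase in every mouse heart library, by role. The log axis gives scaled CPM plus 0.05, filled red points are the 3 cKO libraries, filled blue points flox 1 and 2, and open diamonds flox 3. P4ha3 is the member with the widest gap between groups, at 1.79 to 8.80 CPM in cKO and 0 to 0.115 CPM in flox, and the open diamonds of the histone demethylases and Tet genes lie left of all other libraries.

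The collagen and endoplasmic reticulum hydroxylases were mostly higher in cKO: 7 of 8 had a positive log2 fold change and the median was 0.71, beside 0.00 for all genes tested. Without flox 3, 6 of 8 were positive with a median of 0.55, and with DESeq2's size factors 6 of 8 with a median of 0.65. With flox 3 and cKO 2 both left out, 5 were positive and 3 negative, with a median of 0.615. Flox 3 was the lowest heart library for P4ha1, P4ha2, P4ha3, Plod1, Plod2 and Plod3, but not for P4htm or Asph. P4ha3 (chr7:100285520-100319699 on the plus strand, GRCm38) encodes 1 of the 3 alternative catalytic subunits of collagen prolyl 4-hydroxylase. Its counts were 212, 141 and 787 in the cKO hearts, against 9, 7 and 0 in the flox hearts, or 2.22, 1.79 and 8.80 CPM in cKO against 0.115, 0.0908 and 0 CPM in flox. Every cKO heart lay above every flox heart, and cKO 3 stood highest. The gene passed the filter on low counts only through the cKO libraries, so that any gene entering the test in this way had to differ, and its p-values are to be read with that limit. The means were 4.27 ± 3.92 CPM in cKO and 0.0684 ± 0.0604 CPM in flox (SD, n = 3 each). edgeR's test gave a log2 fold change of 5.78 (SE 1.07, adjusted p = 0.0779), and of 5.35 without flox 3 (adjusted p = 0.0224). Over 14 alternatives the log2 fold change ran from 4.73 to 6.26 and the adjusted p from 7.04e-08 (DESeq2) to 0.4, with 5 alternatives under 0.05. The other catalytic subunits differed less: P4ha1 had 68.1, 60.6 and 96.3 CPM in cKO, against 49.1, 50.4 and 41.8 CPM in flox, and P4ha2 averaged 35.4 ± 9.89 CPM in cKO and 34.7 ± 11.9 CPM in flox. P4ha1 did not overlap between groups, but its log2 fold change of 0.67 (SE 0.32) had an adjusted p of 0.38 in edgeR's test.

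The 250 bases before the transcription start are shown for P4ha3, for its family member P4ha1, a textbook HIF target, and for Egln1, described below. They were searched on both strands for ACGTG and GCGTG, the core letters of a hypoxia response element, which are in capitals (CACGT and CACGC on the other strand). Sequences are from RefSeq on GRCm38.p6 and are written on the gene's strand. The Egln1 window follows RefSeq's start, which differs from that of the GENCODE gene model.
P4ha3, chr7:100285270-100285519, plus strand: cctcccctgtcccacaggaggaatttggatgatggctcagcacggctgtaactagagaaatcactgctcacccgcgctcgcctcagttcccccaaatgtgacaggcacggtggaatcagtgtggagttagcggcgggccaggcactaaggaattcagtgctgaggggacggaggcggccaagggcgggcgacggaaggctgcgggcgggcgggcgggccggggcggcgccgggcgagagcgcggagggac
P4ha1, chr10:59323046-59323295, plus strand: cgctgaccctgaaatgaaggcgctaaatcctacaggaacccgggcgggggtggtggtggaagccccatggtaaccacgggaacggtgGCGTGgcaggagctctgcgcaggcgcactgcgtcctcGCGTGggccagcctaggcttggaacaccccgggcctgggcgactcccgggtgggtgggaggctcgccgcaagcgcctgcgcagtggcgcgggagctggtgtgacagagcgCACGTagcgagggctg
Egln1, chr8:124949255-124949504, minus strand: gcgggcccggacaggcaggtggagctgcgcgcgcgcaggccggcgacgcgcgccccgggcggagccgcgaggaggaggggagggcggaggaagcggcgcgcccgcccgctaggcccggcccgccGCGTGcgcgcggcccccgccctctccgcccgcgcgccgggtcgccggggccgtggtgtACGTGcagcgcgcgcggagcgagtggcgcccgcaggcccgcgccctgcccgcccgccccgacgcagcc
The P4ha1 window held 3 matches and the Egln1 window 2, whereas these letters are not in the P4ha3 window. Of the 42 members with a window, 23 (54.8%) held a match, against 11226 of 27025 genes with a window (41.5%). A match describes letters only.

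Among the lysyl hydroxylases, Plod2, which modifies collagen telopeptides, had 47.4, 29.9 and 80.1 CPM in cKO, against 28.8, 28.1 and 14.0 CPM in flox. The groups did not overlap, although cKO 2 lay close to flox 1, and the log2 fold change was 1.15 (SE 0.48, edgeR adjusted p = 0.329). Plod3, which also adds sugars to hydroxylysine, had 45.5, 45.6 and 49.0 CPM in cKO, against 30.1, 35.5 and 18.1 CPM in flox, with a log2 fold change of 0.74 (SE 0.34, edgeR adjusted p = 0.365). P4htm, a transmembrane prolyl hydroxylase of the endoplasmic reticulum that can act on HIF, had 17.7, 27.6 and 12.9 CPM in cKO, against 7.94, 9.82 and 10.5 CPM in flox. All cKO values of P4htm were above all flox values, and its log2 fold change was 1.04 (SE 0.36, edgeR adjusted p = 0.245). Plod1 overlapped widely, at 129 ± 11.7 CPM in cKO and 101 ± 45.7 CPM in flox (SD, n = 3 each). Asph, the aspartyl hydroxylase of EGF-like domains whose locus also encodes the cardiac protein junctin, went the other way, with 148, 135 and 164 CPM in cKO and 221, 217 and 314 CPM in flox. Its groups did not overlap, and the log2 fold change was -0.75 (SE 0.34, edgeR adjusted p = 0.355). Exons of Plod3 overlap those of Znhit1 by 529 bases on the opposite strand and exons of Asph those of Clvs1 by 2302 bases, and the labels do not say whether reads were counted by strand.

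The lists set beside the members were chosen with earlier results of these data known, so their counts are not independent tests. Partners of the collagen hydroxylases in collagen assembly were read from a list of 14 tested genes. With all libraries 1 was called higher in cKO, the collagen cross-linking oxidase Lox, at 141, 97.2 and 288 CPM in cKO and 7.89, 4.98 and 2.60 CPM in flox (log2 fold change 5.08, SE 0.67, edgeR adjusted p = 0.0402). Without flox 3, 5 of 14 were called, all higher, where 4.26% of all genes were called higher: Lox, the procollagen processing enhancer Pcolce, the oxidases Loxl1 and Loxl3 and the prolyl 3-hydroxylation scaffold Crtap. Of 13 further oxygenases outside the list of members, the collagen prolyl 3-hydroxylases P3h3 and P3h2 were called higher without flox 3, with log2 fold changes of 1.27 and 1.03, and none was called with all libraries. P3h3 had 25.5, 25.1 and 38.9 CPM in cKO, against 10.1, 14.5 and 6.89 CPM in flox. Of the 10 fibroblast markers, 9 had positive log2 fold changes and 1 a negative one, at -0.26. Their summed level was 3206 to 7725 CPM in cKO and 1002 to 1332 CPM in flox, and none was at 0. Their median log2 fold change was 1.80. With all libraries 0 of 10 were called, and without flox 3 4 were called higher, against 4.26% of all genes. Their part in the levels of the collagen hydroxylases was not tested.

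**Figure D2:**
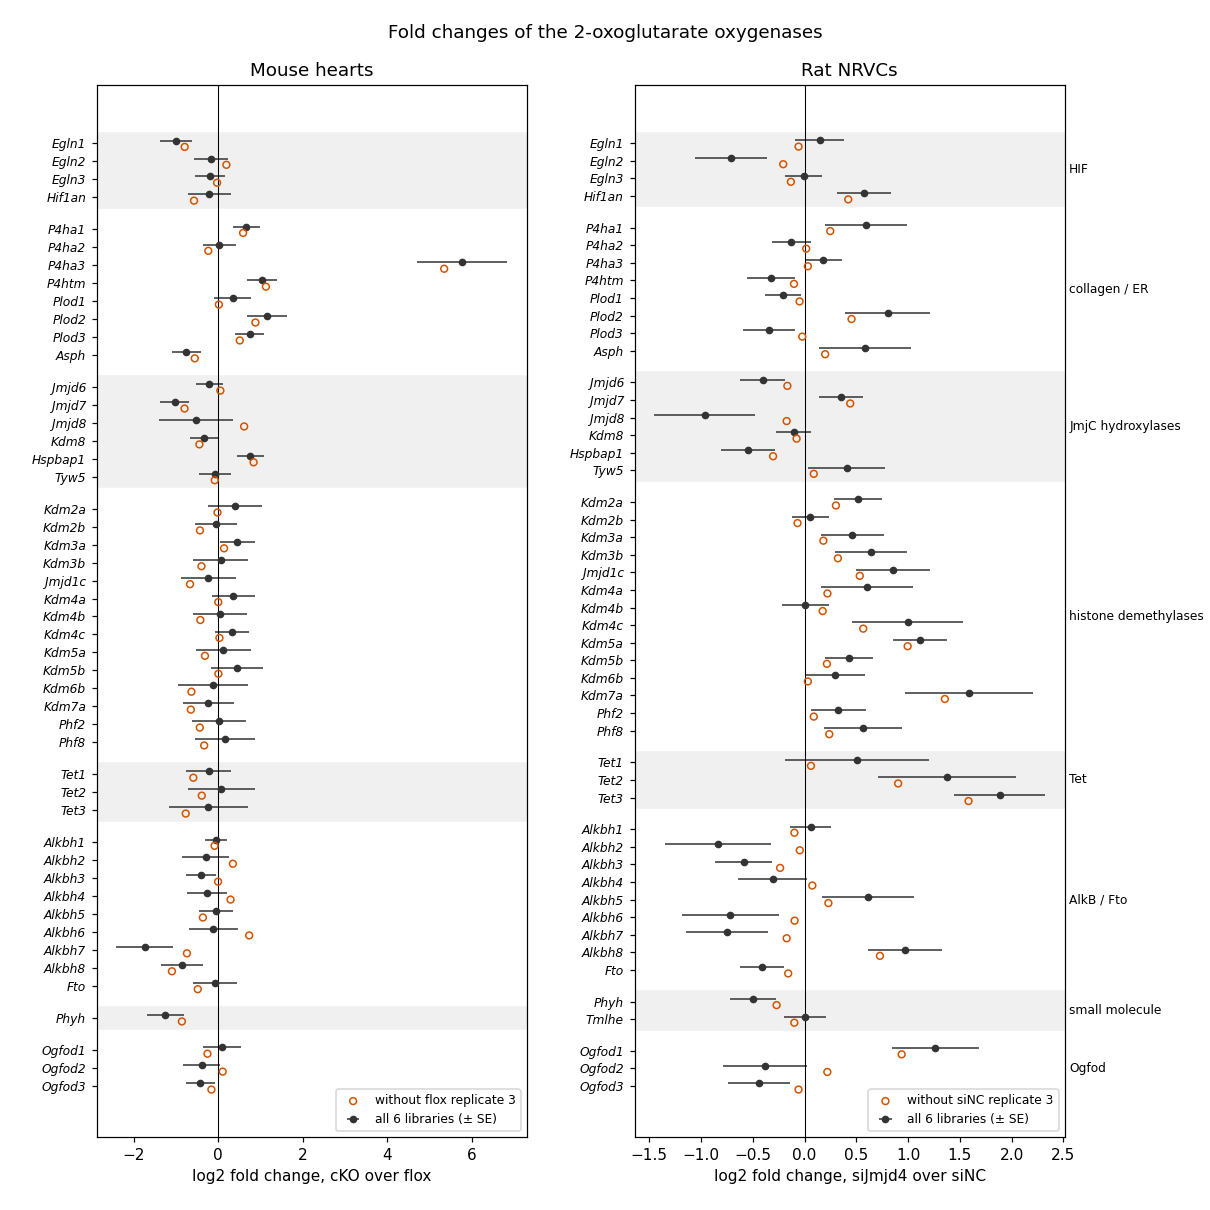
Log2 fold change of each tested member in mouse hearts (left, cKO over flox) and rat NRVCs (right, labelled siJmjd4 over siNC), by role. Filled points are fits of all 6 libraries with their standard error, and open orange circles the fits without flox 3 or siNC 3. P4ha3 in hearts, at 5.78 with all libraries and 5.35 without flox 3, is the value farthest from 0, and in NRVCs the Tet genes and histone demethylases lie right of 0 with all libraries, and their medians move towards it without siNC 3.

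All 4 HIF hydroxylases had negative log2 fold changes with all libraries, with a median of -0.20, and Egln2 was positive without flox 3 (0.20). With libraries scaled by total counts alone 3 of the 4 were positive, or 1 of 4 relative to the median of all genes under that scaling. Egln1, the main prolyl hydroxylase of HIF alpha subunits under normal oxygen, had 225, 313 and 222 CPM in cKO and 477, 401 and 638 CPM in flox. The groups did not overlap, and the means were 253 ± 51.5 CPM in cKO and 505 ± 121 CPM in flox (SD, n = 3 each). edgeR's test gave a ratio of cKO to flox of 0.501 (SE of the log2 value 0.37, adjusted p = 0.279), and a log2 fold change of -0.79 without flox 3. Over 15 alternatives the adjusted p of Egln1 ran from 0.00832 to 0.714, and 3 were under 0.05. The hypoxia-inducible Egln3 had 86.5, 121 and 94.9 CPM in cKO, against 123, 82.8 and 140 CPM in flox, so the groups overlapped, and its log2 fold change was -0.19 (SE 0.35), and -0.025 without flox 3. Egln2 averaged 46.9 ± 14.9 CPM in cKO and 52.4 ± 19.9 CPM in flox, and Hif1an 63.7 ± 19.2 CPM in cKO and 73.5 ± 37.4 CPM in flox. Per kilobase of exon, Egln1 was the second most abundant member after Phyh in both groups, at 70.4 ± 14.3 CPM per kb in cKO and 141 ± 33.6 CPM per kb in flox.

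The HIF subunits and the genes HIF is known to induce were counted from lists of their own. None of 9 tested HIF subunits and partners was called, and Hif1a itself had 125, 92.9 and 112 CPM in cKO, against 83.0, 74.1 and 29.2 CPM in flox (log2 fold change 0.82, SE 0.45, edgeR adjusted p = 0.456, and 0.49 without flox 3). Of 27 tested HIF target genes, 1 was called higher, where 0.508% of all genes were called in either direction. It was the lactate exporter Slc16a3, at 18.5, 18.8 and 19.5 CPM in cKO and 3.17, 2.56 and 1.44 CPM in flox (log2 fold change 2.98, SE 0.37, edgeR adjusted p = 0.0387). The 27 targets had a median log2 fold change of 0.27, with 15 positive and 12 negative. Without flox 3, 5 of 28 were called higher and 1 lower, against 4.26% and 2.93% of all genes. Among the higher ones were Slc16a3, the glucose transporter Slc2a1, the haem oxygenase Hmox1 and the glycolytic enzyme Eno1, and the lower one was the transferrin receptor Tfrc. The 10 macrophage markers also had positive log2 fold changes, with a median of 1.13, or 1.61 without flox 3, and none was at 0. Their summed level was 612 to 795 CPM in cKO and 285 to 514 CPM in flox. With all libraries 1 of 10 was called higher, the chemokine receptor Ccr2, and without flox 3 8 of 10 were. Their part in the levels of the HIF targets was not tested.

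Phyh, the peroxisomal phytanoyl-CoA hydroxylase of branched fatty acid breakdown, was the most abundant member per kilobase, at 165 ± 40.0 CPM per kb in cKO and 391 ± 159 CPM per kb in flox. Its libraries held 224, 300 and 187 CPM in cKO, against 440, 420 and 825 CPM in flox. Every cKO heart was below every flox heart, and flox 3 stood highest. The log2 fold change was -1.25 (SE 0.43, edgeR adjusted p = 0.244), and -0.86 without flox 3. Over 15 alternatives its adjusted p ran from 0.0063 to 0.677, with 4 under 0.05.

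Alkbh7, a mitochondrial AlkB homologue, had 11.6, 23.5 and 10.5 CPM in cKO and 24.9, 26.0 and 102 CPM in flox. The groups came apart by the gap between cKO 2 and flox 1, and flox 3 alone carried the high value, so the log2 fold change of -1.74 (SE 0.67, edgeR adjusted p = 0.292) was -0.74 without it. Alkbh8, a tRNA-modifying enzyme, had 4.19, 3.25 and 9.56 CPM in cKO and 10.8, 13.4 and 6.49 CPM in flox, with overlapping groups and a log2 fold change of -0.85 (SE 0.50). The m6A demethylase Fto had 49.9, 45.3 and 47.3 CPM in cKO, against 67.1, 65.9 and 17.5 CPM in flox. Flox 1 and 2 lay above and flox 3 below all cKO values of Fto, and the log2 fold change was -0.08 (SE 0.51) with all libraries and -0.48 without flox 3. The other m6A demethylase, Alkbh5, averaged 86.5 ± 8.79 CPM in cKO and 90.0 ± 37.2 CPM in flox. With all libraries the 9 AlkB-family members were all negative, with a median of -0.26, whereas 3 were positive without flox 3 and 7 when libraries were scaled by total counts alone. That scaling moved the median of all heart genes to 0.54, and relative to it 1 of the 9 was positive.

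Among the JmjC protein and RNA hydroxylases, Jmjd7, which hydroxylates lysine in GTP-binding DRG proteins, had 2.67, 3.25 and 2.68 CPM in cKO and 5.71, 4.26 and 7.65 CPM in flox. The groups did not overlap, and the log2 fold change was -1.03 (SE 0.34, edgeR adjusted p = 0.222), and -0.80 without flox 3. Its exons share 711 bases with the read-through gene model Gm28042 on the same strand, so the assignment of its reads is uncertain. Hspbap1, a JmjC protein that binds a small heat shock protein, had 3.98, 4.62 and 3.58 CPM in cKO and 2.56, 1.98 and 2.63 CPM in flox, again without overlap (log2 fold change 0.76, SE 0.32, edgeR adjusted p = 0.328). Jmjd8 was high in cKO 2 and flox 3, at 32.8 and 46.2 CPM, and between 6.33 and 11.7 CPM in the other heart libraries. It overlaps Stub1 by 811 bases on the opposite strand. Jmjd6, Kdm8 and Tyw5 overlapped between groups, with log2 fold changes of -0.21, -0.33 and -0.07.

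Enzymes that make, use or clear 2-oxoglutarate, succinate and fumarate were lower in cKO at an unadjusted p under 0.05 for 14 of 22, and for none of 22 higher, beside 6.79% and 8.22% of all genes. None was called with all libraries, and 10 of 22 were called lower without flox 3, against 2.93% of all genes. The list was chosen with earlier results of these data known, so these shares are not an independent test. The median log2 fold change of the 22 was -1.29 with all libraries. It was -0.59 with total counts alone, a scaling under which the median of all genes was 0.54. Dlst, the succinyltransferase of the 2-oxoglutarate dehydrogenase complex, had 103, 102 and 107 CPM in cKO and 237, 239 and 432 CPM in flox (log2 fold change -1.54, SE 0.38, edgeR adjusted p = 0.127, and 0.0175 without flox 3). A list of 9 genes covered carnitine synthesis, to which Bbox1 and Tmlhe belong, its uptake and its use in acyl transfer. None was called with all libraries, and 4 were called lower without flox 3, against 2.93% of all genes. Cpt2 and Crat, the carnitine acyltransferases of mitochondria, had log2 fold changes of -1.39 and -1.32 there. Aldh9a1, of carnitine synthesis, had -1.04 and the carnitine transporter Slc22a5 -0.95. The 10 cardiomyocyte markers summed to 34680 to 38030 CPM in cKO and 50900 to 64710 CPM in flox, with none at 0. Their median log2 fold change was -0.60, or -0.42 without flox 3, and with all libraries 8 were negative and 2 positive. At an unadjusted p under 0.05 there were 2 lower and none higher, beside 6.79% and 8.22% of all genes. None of the 10 was called with all libraries. Without flox 3 the calcium pump regulator Pln alone was called lower, at 142, 228 and 239 CPM in cKO and 865, 909 and 2320 CPM in flox. The part of cardiomyocyte RNA in these lower levels was not tested.

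The 14 tested histone demethylases showed no difference that the heart libraries could resolve. Their log2 fold changes ran from -0.23 to 0.46 with all libraries, none reached an unadjusted p under 0.05, and none had groups without overlap. Kdm3a, which removes methyl groups from histone H3 lysine 9 and is induced by HIF, had 36.3, 24.7 and 29.3 CPM in cKO, against 26.4, 28.4 and 11 CPM in flox (log2 fold change 0.46, SE 0.42). Kdm4c, with the same mark as a substrate, had 17.1, 11.1 and 15.4 CPM in cKO, against 14.1, 14.3 and 6.18 CPM in flox (log2 fold change 0.33, SE 0.40). In both the lowest library was flox 3, and without it the log2 fold changes were 0.14 and 0.03. With all libraries 10 of 14 were positive, without flox 3 4 of 14, and with total counts alone 14 of 14, or 5 of 14 relative to the median of all genes under that scaling. With flox 3 and cKO 2 both left out, 6 of 14 were positive.

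The 3 Tet enzymes, which oxidise 5-methylcytosine in DNA, overlapped between cKO and flox. Tet3 had 35.4, 12.1 and 37.4 CPM in cKO, against 45.3, 51.2 and 2.96 CPM in flox, and its log2 fold change was -0.23 (SE 0.93) with all libraries and -0.77 without flox 3. With flox 3 and cKO 2 both left out it was -0.42. Tet1, the lowest of the 3 per kilobase, had 11.1, 4.45 and 8.34 CPM in cKO, against 11, 13 and 3.87 CPM in flox, with a log2 fold change of -0.23 (SE 0.54), and -0.59 without flox 3. Ogfod1, a prolyl hydroxylase of a small-subunit ribosomal protein, averaged 26.7 ± 3.42 CPM in cKO and 24.9 ± 12 CPM in flox. Ogfod2 and Ogfod3 had log2 fold changes of -0.39 (SE 0.44) and -0.42 (SE 0.33), and Ogfod2 was positive, at 0.11, without flox 3. None of the 12 histone and RNA methyltransferases and DNA methyltransferases set beside the demethylases was called in hearts, with all libraries or without flox 3.

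The level of a member in flox 3 followed the exon length of its gene, taken as the union of exons over its annotated transcripts. That length can exceed the length of the transcripts expressed. Among the 48 members tested in hearts, split at the median exon length of 4090.5 bases, flox 3 was the lowest of 6 libraries in 22 of 24 longer members and in 5 of 24 shorter ones. It was the highest library in 1 of the longer and 14 of the shorter members. The median log2 ratio of flox 3 to the mean of flox 1 and 2 was -1.93 for the longer and 0.59 for the shorter members. In siNC 3 the pattern was alike, with 22 of 24 longer and 6 of 24 shorter members lowest there and median log2 ratios of -1.14 for the longer and 0.61 for the shorter members. Across the members, Spearman's rho between that ratio and mouse exon length was -0.8 in flox 3 and -0.68 in siNC 3. These are descriptions across genes that share their libraries, and rat transcripts may differ in length.

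**Figure D3:**
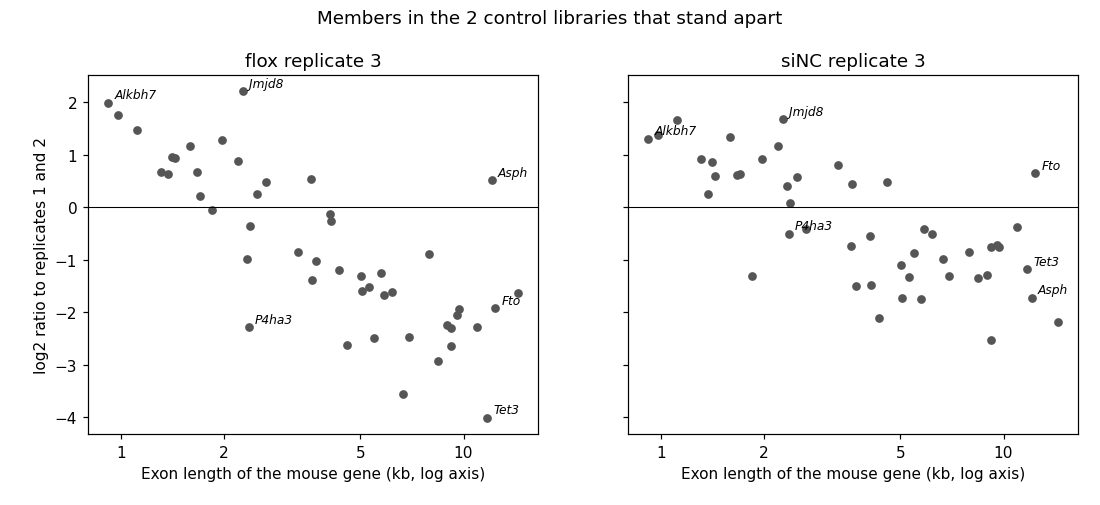
Members in flox 3 (left) and siNC 3 (right): the vertical axis is the log2 ratio of the library to replicates 1 and 2 of its group, the log horizontal axis the exon length of the mouse gene in kb, and each point a member. Short members such as Alkbh7 lie above 0 and long ones such as Tet3 below it in both libraries, while Asph in flox 3 and Fto in siNC 3 are long members above 0.

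In the NRVCs the members with the smallest unadjusted p were Tet3 and Kdm5a, which were higher in the libraries labelled siJmjd4. By size of the log2 fold change the order was Tet3, Kdm7a, Tet2, Ogfod1 and Kdm5a. None of the 49 tested members was called in edgeR's test, where 0.00645% of all genes were, a single gene. At an unadjusted p under 0.05 there were 5 members (10.2%), against 8.71% of all genes. All 5 were higher, against 5.79% of all genes, and none lower, against 2.92%. The smallest adjusted p of a member was 0.379. Without siNC 3, 0.57% of all genes and no member were called. DESeq2's Wald test called 2 members (1.09% of all genes) and limma voom 3 (3.94% of all genes). The groups did not overlap for 19 members (38.8%), 15 of them higher and 4 lower, against 40.2% of all genes in either direction. All genes were not split by direction here, so the split of the members cannot be set beside theirs. The median log2 fold change of the members was 0.18, beside 0.01 for all genes, and 0.08 beside 0.00 without siNC 3.

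**Figure D4:**
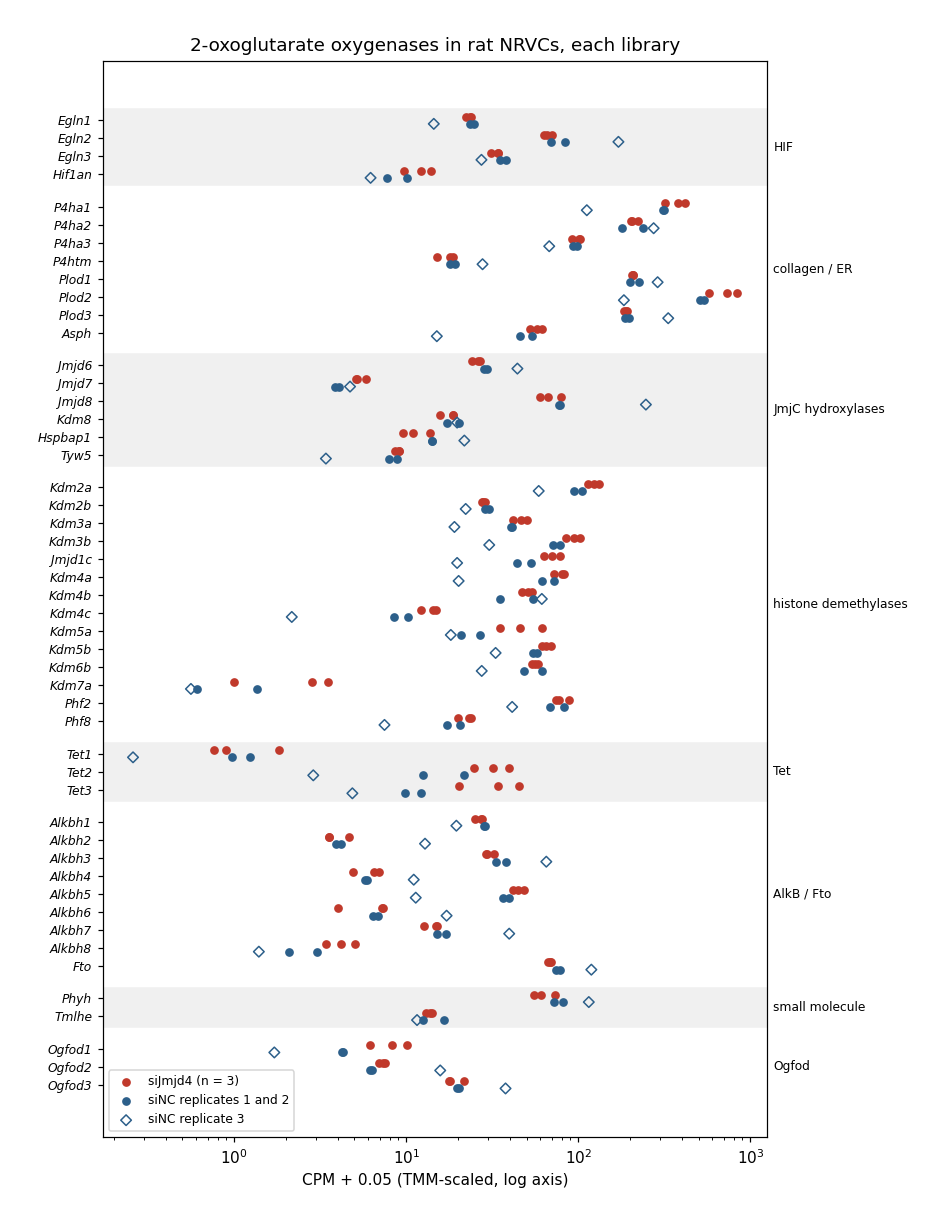
Level of each tested 2-oxoglutarate oxygenase in every rat NRVC library, by role. The log axis gives scaled CPM plus 0.05, filled red points are the 3 libraries labelled siJmjd4, filled blue points siNC 1 and 2, and open diamonds siNC 3. Tet3, at 20.1 to 45.1 CPM in libraries labelled siJmjd4 and 4.81 to 12.2 CPM in siNC, has groups apart, and P4ha3 lies at 92.3 to 102 CPM in libraries labelled siJmjd4 and 67.7 to 98.8 CPM in siNC.

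Tet3 had 20.1, 33.9 and 45.1 CPM in the libraries labelled siJmjd4, against 12.2, 9.83 and 4.81 CPM in siNC. The groups did not overlap, and the means were 33.0 ± 12.5 CPM in libraries labelled siJmjd4 and 8.94 ± 3.76 CPM in siNC (SD, n = 3 each). edgeR's test gave a log2 fold change of 1.89 (SE 0.44, unadjusted p = 0.00443, adjusted p = 0.379). It was 1.58 without siNC 3, and 1.12 once each library's trend with exon length was taken out. Tet2 had 24.8, 31.9 and 39.4 CPM in libraries labelled siJmjd4 and 21.7, 12.5 and 2.83 CPM in siNC, without overlap (log2 fold change 1.38, SE 0.66). Its value was 0.90 without siNC 3 and 0.86 with the length trend taken out. Tet1 was low, at 1.11 ± 0.566 CPM in libraries labelled siJmjd4 and 0.774 ± 0.508 CPM in siNC.

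All 14 tested histone demethylases had positive log2 fold changes, with a median of 0.54, beside 0.01 for all genes. Without siNC 3 the median was 0.23 with 13 positive, with DESeq2's size factors 13 were positive, and with the length trend taken out it was 0.08 with 7 positive and 7 negative. Taking out the length trend also removes any group difference that follows length, so that fit cannot tell such a difference from the trend. Kdm5a, which removes methyl groups from histone H3 lysine 4, had 35.2, 45.7 and 61.2 CPM in libraries labelled siJmjd4, against 26.7, 20.8 and 18.1 CPM in siNC. Its groups did not overlap, and the log2 fold change of 1.12 (SE 0.26, edgeR adjusted p = 0.379) was 0.29 with the length trend taken out. Kdm7a, a demethylase of histone H3 lysines 9 and 27, had 0.948, 2.77 and 3.46 CPM in libraries labelled siJmjd4, against 1.31, 0.556 and 0.510 CPM in siNC, so that siJmjd4 1 lay among the siNC values (log2 fold change 1.59, SE 0.62, and 0.88 with the length trend taken out). Jmjd1c, a Kdm3 relative, had 63.4, 70.1 and 77.7 CPM in libraries labelled siJmjd4, against 53.3, 44.0 and 19.7 CPM in siNC (log2 fold change 0.85, SE 0.36). Its value was 0.53 without siNC 3 and 0.25 with the length trend taken out. Of 11 tested methyltransferases none was called, and 2 were higher at an unadjusted p under 0.05, the histone H3 lysine 4 methyltransferase Kmt2a and the DNA methyltransferase Dnmt3a, with log2 fold changes of 1.71 and 0.98.

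Across the 48 members with a mouse length, Spearman's rho between NRVC log2 fold change and length was 0.74 with all libraries, 0.6 without siNC 3 and 0.16 with the length trend taken out. In hearts the same values were 0.26, -0.41 without flox 3 and -0.064. Taking the trend out removes by design what follows length in each library, a group difference included. The weak last value in each system was therefore built in and tests nothing. The library labelled siJmjd4 1 ran the same way as siNC 3, with a rho of -0.69 between its ratio and length, and cKO 2 the same way as flox 3, at -0.78. With siNC 3 and siJmjd4 1 both left out, 12 of 49 members were called, against 15.8% of all genes. Of these 10 were higher, against 10.6% of all genes, and 2 lower, against 5.18%. With flox 3 and cKO 2 both left out, 9 of 48 were called, against 19.1% of all genes. The 4 higher ones, against 9.54% of all genes, were P4ha3, P4ha1, Plod2 and Plod3, and the 5 lower ones, against 9.53%, Egln1, Phyh, Alkbh7, Asph and Fto. These fits rest on 2 libraries a group.

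Among the other roles in NRVCs, Ogfod1 had 6.07, 8.16 and 10.1 CPM in libraries labelled siJmjd4, against 4.20, 4.26 and 1.66 CPM in siNC, without overlap (log2 fold change 1.26, SE 0.42, edgeR adjusted p = 0.379). Alkbh8 had 3.35, 4.13 and 4.96 CPM in libraries labelled siJmjd4, against 2.96, 2.04 and 1.34 CPM in siNC. Alkbh3, which repairs alkylated DNA and RNA, had 32.1, 29.1 and 29.6 CPM in libraries labelled siJmjd4, against 33.4, 38.0 and 65.1 CPM in siNC. The log2 fold changes were 0.97 (SE 0.36) for Alkbh8 and -0.59 (SE 0.27) for Alkbh3, or -0.24 for Alkbh3 without siNC 3. Of the HIF hydroxylases, Hif1an had 9.67, 13.8 and 12.2 CPM in libraries labelled siJmjd4, against 10.1, 7.66 and 6.15 CPM in siNC (log2 fold change 0.58, SE 0.26). Egln2 had 69.8, 63.0 and 65.9 CPM in libraries labelled siJmjd4, against 69.0, 84.0 and 171 CPM in siNC (log2 fold change -0.71, SE 0.35, and -0.21 without siNC 3). Egln1, at 23.1 ± 0.758 CPM in libraries labelled siJmjd4 and 20.9 ± 5.59 CPM in siNC, overlapped.

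The collagen hydroxylases of NRVCs were balanced, 4 of 8 positive with a median of 0.03. Plod2 had 574, 736 and 831 CPM in libraries labelled siJmjd4, against 507, 535 and 184 CPM in siNC. P4ha1 had 317, 379 and 417 CPM in libraries labelled siJmjd4, against 309, 316 and 112 CPM in siNC, and neither gene's groups overlapped. Their log2 fold changes of 0.80 (SE 0.41) and 0.59 (SE 0.39) were 0.45 and 0.25 without siNC 3. Phyh had 73.2, 61.0 and 55.4 CPM in libraries labelled siJmjd4 and 80.9, 71.7 and 115 CPM in siNC, with overlap between siJmjd4 1 and siNC 2 (log2 fold change -0.50, SE 0.22, and -0.27 without siNC 3). Hspbap1 had 13.6, 10.9 and 9.47 CPM in libraries labelled siJmjd4 and 14.0, 14.0 and 21.7 CPM in siNC (log2 fold change -0.55, SE 0.26, and -0.30 without siNC 3). Tmlhe, measured in NRVCs, averaged 13.6 ± 0.546 CPM in libraries labelled siJmjd4 and 13.5 ± 2.67 CPM in siNC. None of the lists set beside the members held a called gene in NRVCs: 20 genes of 2-oxoglutarate metabolism, 7 HIF subunits and partners, 26 HIF targets, 13 collagen-modifying partners, 9 carnitine genes, 11 methyltransferases and 11 further oxygenases. In these lists the numbers at an unadjusted p under 0.05 were 1 of the collagen partners (Lox) and 2 methyltransferases. Of the 9 tested cardiomyocyte markers, 8 had negative log2 fold changes, with a median of -0.42, or -0.29 without siNC 3. At an unadjusted p under 0.05 there were 3 of 9 lower, against 2.92% of all genes. The groups did not overlap for 6 of the 9 markers, 5 lower and 1 higher, against 40.2% of all genes in either direction. None was at 0 or called, and their part in the NRVC differences was not tested.

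Responses in hearts and NRVCs were set against each other in 1 edgeR model holding the 12 libraries, as the heart log2 fold change minus the NRVC log2 fold change. Species, age, culture and kind of perturbation cannot be told apart in this difference. Of 48 members tested in both systems, 1 was called, against 2.25% of 11848 genes paired by symbol. It was P4ha3, with a difference of 5.55 (SE 0.94) and an adjusted p of 0.0132, and of 5.35 with an adjusted p of 0.00787 without flox 3 and siNC 3. In NRVCs P4ha3 had 92.3, 102 and 101 CPM in libraries labelled siJmjd4, against 93.5, 98.8 and 67.7 CPM in siNC, so the groups overlapped there (log2 fold change 0.18, SE 0.18, edgeR adjusted p = 0.533). The call was lost without siJmjd4 2 and without siJmjd4 3, and a filter at a mean of 5 CPM removed the gene. P4ha3 passed the filter on low counts in hearts only through the cKO libraries. The heart side of its difference was therefore selected to be positive, and its adjusted p is to be read with that limit. Without flox 3 and siNC 3 together, 7 members were called, against 15.3% of all pairs: P4ha3, Hspbap1 and Plod3 with a positive difference and Asph, Jmjd7, Ogfod1 and Tet3 with a negative one. Tet3 had a difference of -2.12 (SE 1.11) with all libraries and -2.32 in that fit, where its adjusted p was 0.0382. P4htm and Alkbh8, which were not called, had differences of 1.37 (SE 0.44) and -1.83 (SE 0.64) with all libraries.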

How the data were processed

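Gene counts of 6 mouse heart and 6 rat NRVC libraries were used as deposited by the authors, 1 table per species. Per the submitters' processing notes, HISAT2 2.1.0, StringTie 1.3.4 and edgeR 3.20.9 with builds mm10 and rn6 were named. No source used here gives the annotation or whether reads were counted by strand.

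Each system was fitted with edgeR 4.0.16 in R 4.3.3: filterByExpr, TMM scaling, robust quasi-likelihood fits, a two-sided test on group and Benjamini-Hochberg adjustment over all genes tested. The standard errors given are the absolute log2 fold change divided by the square root of the test's F statistic. They were derived from the test and not estimated apart from it. DESeq2 1.42.0, limma 3.58.1 voom, other scalings and filters, an offset for each library's trend with exon length (smoothing span 0.3), a replicate block and fits leaving out libraries were alternatives. Lengths and positions came from GENCODE M21 on GRCm38, matched by symbol to 80% of heart and 83.9% of NRVC genes tested. The fitting code was tested on simulated data.

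The members and lists were chosen with earlier results of these data known. Genes were named by rule: Jmjd4, each member called with all libraries or without flox 3 or siNC 3, and the 2 smallest p per role or list in each system. Others were named after their values were seen. A few list genes that the rule names are not reported here. Chi-square tests of counts differed from sampling noise for every pair of replicates, so no library was taken as a copy of another. All 12 libraries were kept, and these tests do not bear on the quality of flox 3 or siNC 3.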

Additional observations from a re-analysis of the deposited data

Results flagged for a closer look

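The response of P4ha3 differed between the hearts and the NRVCs by 5.55 on the log2 scale (heart minus NRVC, SE 0.94), by the test of the difference itself in edgeR's model of all 12 libraries (adjusted p = 0.0132). The heart libraries held 1.79 to 8.80 CPM in cKO and 0 to 0.115 CPM in flox, and the NRVC libraries 92.3 to 102 CPM in those labelled siJmjd4 and 67.7 to 98.8 CPM in siNC. All 3 cKO hearts lay above all 3 flox hearts. P4ha3 passed the filter on low counts in hearts only through the cKO libraries, with 9, 7 and 0 counts in flox, and the p is to be read with that limit. A filter at a mean of 5 CPM removed the gene, and the call was lost without siJmjd4 2 and without siJmjd4 3.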

How the results depend on the processing

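The 42 fold changes of named genes were recomputed under alternatives, 624 values in all. Of these values, 552 kept direction and side of the threshold, 44 kept direction and passed it, and 28 changed direction. None of the 42 was called in the main fit, so no call could be lost. Called heart genes numbered 92, and 20 with total counts alone, 1748 with DESeq2's Wald test, 3859 with limma voom, 146 without the filter, 1086 with the length offset and 3585 without flox 3 and cKO 2. Leaving out 1 library at a time gave 0 to 1373 genes, the 1373 without flox 3. Members called in hearts were 0, and 4 with DESeq2, 10 with limma voom, 3 with the length offset, 9 without flox 3 and cKO 2, and 0 to 1 leaving out 1 library. In NRVCs 1 gene was called, and 168 with DESeq2, 611 with limma voom, 2470 without siNC 3 and siJmjd4 1, and 0 to 90 leaving out 1 library. Members called there were 0, and 2 with DESeq2, 3 with limma voom and 12 without siNC 3 and siJmjd4 1, and 0 leaving out 1 library. Members whose response differed between systems numbered 1, and 0 with a mean of at least 5 CPM, which drops P4ha3, 7 without flox 3 and siNC 3, and 0 to 2 leaving out 1 library.

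Replicate numbers did not pair the samples: same-number correlations of deviations were -0.48 to 0.36 in hearts and -0.15 to -0.019 in NRVCs. With the replicate block 0 genes and 0 members were called in either system, and Tet3 and Fto in hearts turned to 0.17 and 0.13. With total counts alone the heart log2 fold changes of Egln3 (0.44), Tet1 (0.19), Tet3 (0.10), Ogfod3 (0.25), Ogfod2 (0.38) and Fto (0.28) were positive, under a median of all genes of 0.54. Leaving out 1 library gave heart ranges of -0.59 to 0.10 for Tet1, -0.77 to 0.23 for Tet3, -0.60 to 0.11 for Ogfod2 and -0.48 to 0.20 for Fto, and NRVC ranges of -0.16 to 0.66 for Jmjd4 and -0.10 to 0.18 for Tmlhe. In NRVCs Jmjd4 was -0.18 with limma voom and -0.20 without siNC 3 and siJmjd4 1. Tmlhe was -0.017 with the size factors of DESeq2 and with its Wald test, -0.023 with limma voom, and -0.12 without both libraries. The length offset turned Ogfod3 to 0.023 and Kdm2a to -0.19. The causes were not tested, and fits with 2 libraries in a group assume that they vary like the rest.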
